A study of Mus musculus and Homo sapiens with 20 samples.

Results

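H3K27me3, the trimethylation of lysine 27 of histone H3, is written by Polycomb repressive complex 2 and marks silenced genes, among them developmental regulators and genes of other lineages. H2AK119ub, a single ubiquitin on histone H2A, is written by Polycomb repressive complex 1, and the pair of marks often lies on the same chromatin. TET2 oxidizes 5-methylcytosine in DNA and RNA, and its loss is common in myeloid malignancy. The genomic bins described here were selected on the H3K27me3 peak lists themselves. They are the 1-kb bins of mouse chromosomes 1 to 19 (mm10) that were at least 50% covered by a peak in both Tet2 wild-type (WT) libraries of haematopoietic stem and progenitor cells (HSPCs) and in neither Tet2-knockout (KO) library. Such bins, called lost bins below, numbered 8003 of 2462736 autosomal bins. They were 6.34% of the 126214 bins marked in both WT libraries. A further 104443 bins (82.8%) were marked in all 4 libraries and are called kept bins, and 13768 (10.9%) were marked in 1 KO library.

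The marks were mapped by CUT&Tag, in which an antibody-tethered transposase tags the DNA around a histone mark, with 2 libraries per group and 16 mouse libraries in all. The HSPCs were lineage-negative, c-Kit+ (LK) bone marrow cells of WT C57BL/6 mice and of Tet2-/- mice backcrossed to C57BL/6, aged 6 to 8 weeks. No Cre driver or cell type restriction is named for the Tet2-/- mice, and the study used both sexes. LK cells are a mixture of stem cells and committed progenitors. How many animals went into a library, and whether the cells had been cultured, was not given in the sources used here. The comparison cells were WT and Tet2 KO mouse embryonic stem (mES) cells with the same marks, kept in serum with LIF and the inhibitors CHIR99021 and PD0325901. Where nothing says that libraries came from separate animals or cultures, the spread between them may be technical. At the promoters of 8 developmental genes that blood cells keep silent (such as Pax6, Hoxd13 and Sox1) H3K27me3 covered the whole window of 1 kb on each side of the start in all 4 HSPC libraries. Of 12 HSPC genes, 4 (Lmo2, Ptprc, Vav1 and Myb) had no covered base at the promoter in any of the 4, whereas 3 (Gata2, Tal1 and Cebpa) were fully covered in all 4. Stromal Cxcl12, Lepr and Col1a1 and the B cell genes Pax5 and Ebf1 were likewise fully covered in all 4 libraries, whereas Cd4, Cd8a, Elane, Mpo, Pecam1 and 3 of 3 mast cell genes were at 0 in all 4. A mark of silenced genes can check a cell type only in part.

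The deposited lists gave peak positions with no read counts, so depth and counting error are unknown. The 4 HSPC H3K27me3 lists held 80835 to 85015 autosomal peaks over 163 to 177 Mb. On chromosome X the libraries stood apart by genotype, since the peaks of WT libraries 1 and 2 spanned 1.05 and 1.07 Mb and those of KO libraries 1 and 2 spanned 24.3 and 21.7 Mb. The HSPC H2AK119ub lists also stood apart there, with 0.541 and 0.329 Mb in WT and 2.51 and 2.69 Mb in KO. The bins described here are autosomal. What the difference on X does to the autosomal calls was not tested.

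Sequences are shown for 3 of the runs of adjacent lost bins of at least 5 kb, on different chromosomes, and for a pair of runs that held gene promoters, as examples of wide changes away from and at genes. For each run the 300 bases with the most CG dinucleotides outside annotated exons are printed, plus strand, GRCm38/mm10, with each CG in capitals, since CG density differed between lost and kept bins. CG is its own reverse complement, so the count holds for both strands. At least 1 CG is present in 81.4% of all autosomal windows of this length, and the median window holds 2. The windows are an intergenic stretch in an 8-kb run on chromosome 14 whose nearest protein-coding start is that of Mtmr9 (8 CG), an intron of Asap3 (8 CG), an intergenic stretch near Nedd4 (5 CG), the bases directly upstream of the start of Tnf (10 CG) and a stretch just past the end of Sfn (36 CG). Windows with at least 36 CG make up 0.0969% of autosomal windows and those with at least 5 make up 15.1%.
Near Mtmr9, chr14:63575689-63575988: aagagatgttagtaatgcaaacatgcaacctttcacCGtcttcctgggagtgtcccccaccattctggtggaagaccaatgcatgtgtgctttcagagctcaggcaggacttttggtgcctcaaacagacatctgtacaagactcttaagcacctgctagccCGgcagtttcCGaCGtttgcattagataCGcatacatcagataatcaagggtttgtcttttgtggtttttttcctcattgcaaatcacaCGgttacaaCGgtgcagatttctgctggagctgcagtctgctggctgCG
Asap3 intron, chr4:136209025-136209324: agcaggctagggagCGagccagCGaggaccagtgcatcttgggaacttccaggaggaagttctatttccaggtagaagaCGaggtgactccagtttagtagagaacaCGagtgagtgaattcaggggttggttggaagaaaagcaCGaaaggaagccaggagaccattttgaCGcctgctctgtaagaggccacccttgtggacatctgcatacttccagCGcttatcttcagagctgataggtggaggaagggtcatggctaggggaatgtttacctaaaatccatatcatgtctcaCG
Near Nedd4, chr9:72658439-72658738: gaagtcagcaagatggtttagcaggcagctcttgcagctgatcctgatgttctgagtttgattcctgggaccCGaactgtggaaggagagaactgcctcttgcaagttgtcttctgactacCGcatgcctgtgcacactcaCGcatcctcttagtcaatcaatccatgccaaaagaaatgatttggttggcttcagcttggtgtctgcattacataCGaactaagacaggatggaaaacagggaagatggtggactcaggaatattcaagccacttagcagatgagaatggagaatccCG
Upstream of Tnf, chr17:35202008-35202307: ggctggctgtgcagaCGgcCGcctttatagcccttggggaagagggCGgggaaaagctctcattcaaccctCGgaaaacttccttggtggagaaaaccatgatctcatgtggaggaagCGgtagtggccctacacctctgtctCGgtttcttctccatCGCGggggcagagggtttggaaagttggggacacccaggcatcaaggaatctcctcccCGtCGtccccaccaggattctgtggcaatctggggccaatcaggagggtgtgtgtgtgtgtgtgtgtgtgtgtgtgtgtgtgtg
Past the end of Sfn, chr4:133599691-133599990: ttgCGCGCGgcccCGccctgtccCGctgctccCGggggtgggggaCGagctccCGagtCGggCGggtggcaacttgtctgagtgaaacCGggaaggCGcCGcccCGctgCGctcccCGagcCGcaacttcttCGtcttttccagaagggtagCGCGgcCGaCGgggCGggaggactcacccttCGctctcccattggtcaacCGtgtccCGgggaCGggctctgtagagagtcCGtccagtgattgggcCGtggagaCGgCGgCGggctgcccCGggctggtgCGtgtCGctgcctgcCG
Each window was picked for its CG, so its count describes the richest stretch of the run and not the run as a whole.

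Cover of the lost bins differed between genotypes by construction, and the values are given as a description without a test. The mean share of a lost bin under an H3K27me3 peak was 75.9% and 76.2% in the WT libraries and 14.8% and 12.7% in the KO libraries. In KO library 1, 52.7% of the lost bins had no covered base, and in KO library 2, 57.4%. Both KO libraries had no covered base in 3359 bins (42.0%). Full cover in both WT libraries was seen in 1716 bins (21.4%), and 282 bins went from full cover in both WT libraries to none in both KO libraries.

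**Figure D1:**
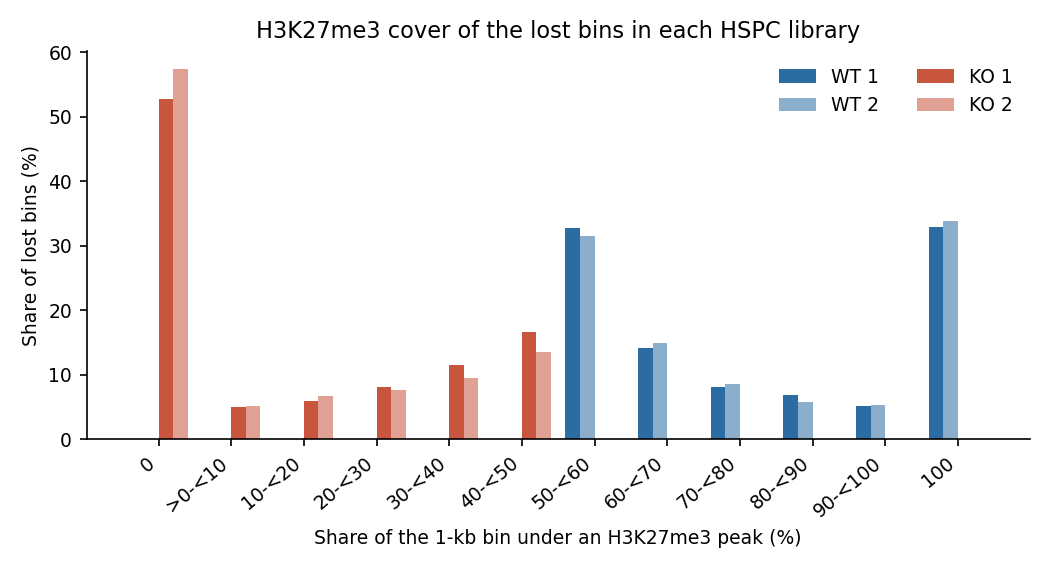
Share of the 8003 lost bins (y axis, %) by the share of the 1-kb bin under an H3K27me3 peak (x axis, %), with 1 bar for each of the 4 HSPC libraries. WT values start at 50% and KO values end below it because the bins were chosen that way. Within those limits, 32.9% and 33.8% of bins were fully covered in the WT libraries and 52.7% and 57.4% had no cover in the KO libraries.

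Many lost bins lay close to the threshold. The lower of the WT values was between 50% and 60% in 3878 bins (48.5%), and the higher of the KO values was between 40% and 50% in 2035 (25.4%). Just outside, 4574 bins had a lower WT value of 40% to 50% with both KO values under 50%, and 4708 bins met the WT rule but had a higher KO value of 50% to 60%. Peaks of exactly 501 bp, the commonest width, made up 33.2% to 38.0% of the autosomal peaks of each list, and 1 such peak inside a bin is enough to mark it. In at least 1 WT library, 28.5% of lost bins were covered by peaks of that width alone, against 3.06% of kept bins. A stricter rule, at least 75% in both WT libraries and under 25% in both KO libraries, left 1162 bins (14.5%).

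Among all bins marked in at least 1 of the 4 libraries, 3.2% were lost by this rule. The reverse pattern, no WT and both KO libraries, was found in 11454 bins. The lost bins came from every autosome, as 4.76% (chromosome 15) to 8.84% (chromosome 3) of the bins marked in both WT libraries. Tet2 itself lies on chromosome 3. Within 10 Mb of it, 57 of 506 such bins (11.3%) were lost.

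Loss mostly came in narrow stretches. Of 7462 runs of adjacent lost bins, 7014 were a single bin, and 56 reached at least 3 kb. Thus 87.6% of lost bins had no other lost bin directly beside them. In the WT libraries 51.6% of lost bins were the whole of a 1-kb marked run, compared with 13.1% of kept bins. Loss of the whole run was seen for 17.8% of the 23225 WT runs of 1 kb, for 1.86% of the 10505 runs of 2 to 4 kb, for 2 of 3722 runs of 5 to 9 kb and for 1 of 2628 runs of at least 10 kb. Most bins of broad marked runs stayed in the lists, and in runs of at least 10 kb 1.32% of bins were lost. A kept bin lay directly beside 2387 lost bins (29.8%). Counting any bin marked in at least 1 of the 4 libraries and not lost, 5780 lost bins (72.2%) had such a neighbour. These shares use the same contrast as the selection and carry no test.

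**Figure D2:**
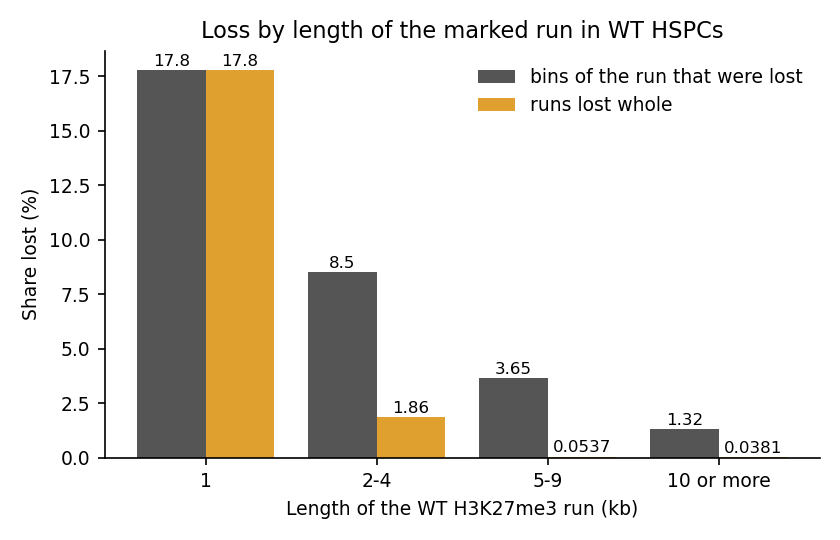
Share lost (y axis, %) by length in kb of the run of adjacent bins marked in both WT HSPC libraries (x axis). Grey bars give the share of bins of such runs that were lost and orange bars the share of runs lost whole. Both fall with length, from 17.8% for runs of 1 kb to 1.32% of bins and 0.0381% of runs at 10 kb or more.

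Lost bins lay away from promoters more often than kept bins. The window of 1 kb on each side of a protein-coding start held the centre of 5.90% of lost bins and 10.9% of kept bins, against 1.63% of all bins without assembly gaps. Exons were touched by 15.4% of lost and 15.5% of kept bins outside promoters, introns alone held 30.0% and 29.3%, and 48.8% and 44.3% were intergenic. The median distance to the nearest protein-coding start was 15.1 kb for lost bins, 13.5 kb for kept bins and 72.5 kb for all bins. Gained bins were farther away, at 50.8 kb. Base composition lay between that of kept bins and the genome. The mean number of CG per kb was 13.6 in lost bins, 18.7 in kept bins and 8.51 in all bins, and mean GC content was 47.9%, 49.8% and 41.9%. Bins with at least 30 CG, the range of CpG islands, made up 5.35% of lost bins and 14.2% of kept bins. Soft-masked repeat sequence filled 23.4% of the lost bins on average, 18.1% of kept bins and 33.5% of all bins. Bins are not replicates, and these shares describe the bins of these 4 libraries.

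**Figure D3:**
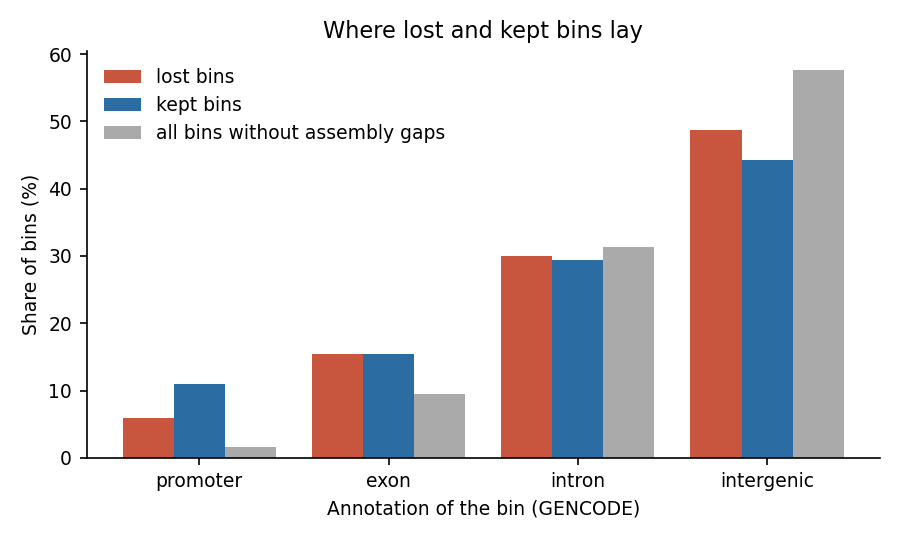
Share of bins (y axis, %) in each annotation class (x axis) for lost bins, kept bins and all autosomal bins without assembly gaps. Promoters held 5.90% of lost and 10.9% of kept bins, while the exon and intron shares of lost and kept bins lay within 1 percentage point of each other.

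Protein-coding genes with a lost bin in their span numbered 2413 of 20807, or 11.6%, and 512 promoters (2.46%) held a lost bin. Of the 9339 genes with a promoter bin marked in both WT libraries, 5.48% had a lost promoter bin. At least 3 lost bins were found in 320 genes and at least 8 in 30 genes. Counts rise with the length of the gene, and 21 of the 24 genes named here with the most lost bins spanned over 100 kb. In these 24, the median share of the WT-marked bins that was lost was 23.4%, from 4.66% (Fgfr2) to 52.6% (Atp8a2). The first place by count belonged to Gm20388 with 59 lost bins, a read-through annotation of 4435 kb over many genes of chromosome 8, in which 1111 bins were kept. Fgfr2, a fibroblast growth factor receptor, had 15 lost bins in an annotated span of 2961 kb but 268 kept and 76 gained bins. Both spans reach over neighbouring genes.

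Among genes of ordinary span, Skap1, which encodes a T cell adaptor protein, had the most, with 22 of 115 WT-marked bins lost and 74 kept, all of the lost ones in introns. Its span was 48.0% and 51.0% covered in the WT libraries and 33.1% and 31.9% in the KO libraries, while its promoter stayed fully covered in all 4. Mast4, a microtubule-associated kinase, lost 15 of 57, and its promoter too was fully covered throughout. Tcf7l2, a transcription factor of Wnt signalling, lost 13 of 34 WT-marked bins, and 11 of them fell in 46 kb of its body that began 4180 bp from the start. Cover of Tcf7l2 was 27.5% and 27.2% in WT and 11.5% and 12.2% in KO. Kcnq1, a potassium channel gene in an imprinted domain, lost 13 of 58 but its total cover overlapped between genotypes, at 22.2% and 24.8% in WT and 22.2% and 21.1% in KO.

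Asap3, an Arf GTPase-activating protein gene, stood out for density. Its 38.9-kb span was 93.9% and 94.6% covered in the WT libraries and 49.4% and 47.2% in the KO libraries, with 12 of 35 WT-marked bins lost, 19 kept and none gained. Elovl2, a fatty acid elongase gene of like length, had 8 of 21 lost, with cover of 72.1% and 70.5% in WT and 49.2% and 35.1% in KO. A count of 11 lost bins each was found for the calcium release channel gene Ryr1, the GDNF receptor gene Gfra1, the calcium channel gene Cacna1a and the adhesion gene Cadm1. Dixdc1, Syt2, Glis1, Pebp4, Atp8a2 and Kalrn each lost 10, and St6gal1, Kcnn3, Dab2ip, Dysf, Frmd5 and Adgrv1 each lost 9. Of the 24 genes, 20 kept more bins than they lost, 13 had a promoter fully covered in all 4 libraries, and Dixdc1 and Dab2ip had a lost promoter bin. H2AK119ub marked 144 and 113 of the 315 lost bins of these genes in the WT libraries and 125 and 131 in the KO libraries, so the genotypes overlapped.

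The longest reported runs lay on chromosome 14. One of 8 kb at chr14:63568001-63576000 was 95.4% and 100% covered in the WT libraries and had no covered base in either KO library. It held no annotated gene, and the nearest protein-coding start, that of the phosphatase-family gene Mtmr9, was 24018 bp away. A second of 8 kb at chr14:63558001-63566000 was 89.9% and 89.4% covered in WT and likewise at 0 in both KO libraries. Together with shorter runs they formed a cluster of 23 lost bins in 30 kb, chr14:63546001-63576000, with no kept or gained bin, covered to 80.8% and 90.02% in WT and 0 in KO. H2AK119ub was sparse over these 30 kb, covering 5.19% and 1.67% in the WT libraries of HSPCs and 7.70% and 1.67% in the KO libraries. In mES cells H3K27me3 covered 19.02% and 29.4% of them in WT and 26.8% and 13.0% in KO. Peaks lay over part of this stretch in all 4 mES lists. Beside it, 11 lost and 4 kept bins lay at the start of Xkr6, a scramblase-family gene, with runs of 4 kb at chr14:63598001-63602000 and chr14:63609001-63613000.

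On chromosome 4, 5 kb of intron in Asap3 (chr4:136209001-136214000) were fully covered in WT and 8.48% and 6.44% covered in KO. A run of the same length at chr4:136072001-136077000, in the noncoding gene Gm13009, was fully covered in WT and 0% and 16.4% covered in KO. Near Nedd4, a ubiquitin ligase gene, chr9:72656001-72661000 lay 1346 bp from the start and went from 90.02% and 92.4% in WT to 13.4% and 0% in KO. Runs of 4 kb lay in Ryr1 (chr7:29063001-29067000), near the splicing factor gene Esrp1 (chr4:11406001-11410000) and near the cytokine gene Tnfsf9 (chr17:57113001-57117000). In these the WT values were 86.2% to 100% and the KO values 0% to 17.2%. Of all 56 runs of at least 3 kb, 28 held no protein-coding gene, 42 had no exonic base and 3 touched a protein-coding start. H2AK119ub covered at least 50% of the run in all 4 HSPC libraries for 10 of them and less than 50% in all 4 for 30.

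**Figure D4:**
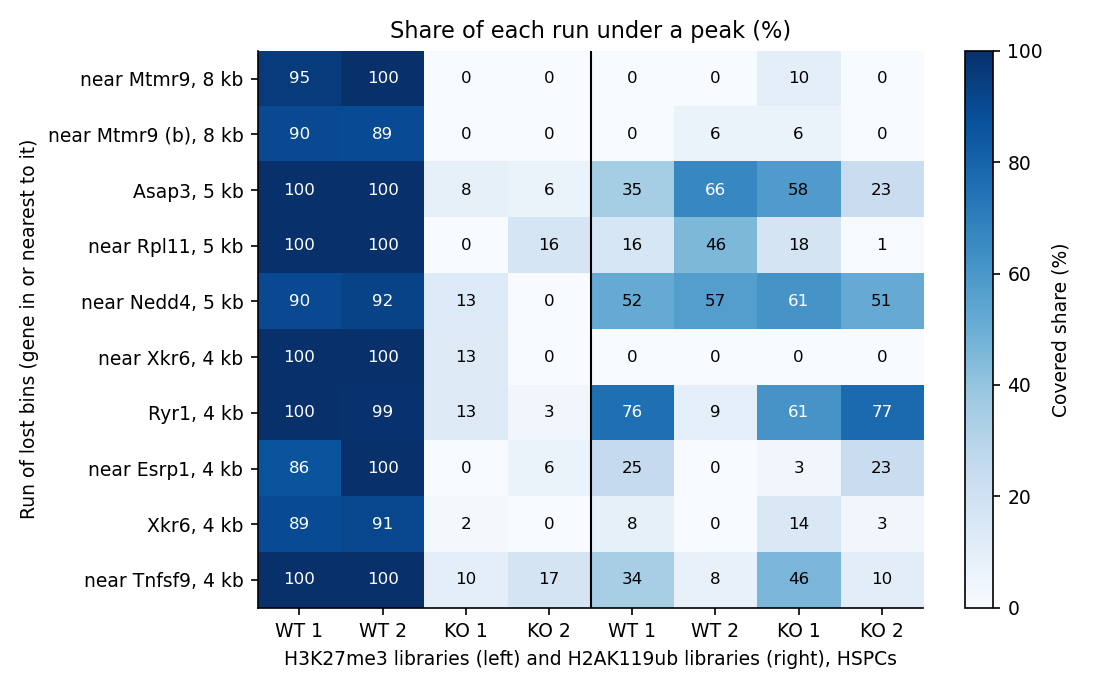
Share of each of the 10 longest reported runs of lost bins under a peak (cell values and colour, %) in the 4 H3K27me3 and the 4 H2AK119ub libraries of HSPCs (x axis), with the gene in or nearest to the run and its length (y axis, a second run near a gene is marked b). H3K27me3 is at least 86.2% in WT and at most 17.2% in KO by selection, whereas H2AK119ub follows no single pattern and reaches at least 50% in all 4 libraries only near Nedd4.

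Dense groups with intervening kept bins were also seen. A 48-kb stretch that begins at the edge of Fcgr3, which encodes a low-affinity IgG receptor of myeloid cells, and lies mostly outside it (chr1:171063001-171111000) held 15 lost and 6 kept bins. It was chosen after its values were seen, and 1 lost bin was counted in Fcgr3 itself. Cover by H3K27me3 there was 53.7% and 48.8% in WT and 16.5% and 20.1% in KO, and by H2AK119ub 42.1% and 38.1% in WT and 24.1% and 28.3% in KO. In mES cells the same 48 kb had 31.6% and 35.2% H3K27me3 cover in WT and 11.2% and 6.55% in KO, and 33.9% and 33.3% H2AK119ub cover in WT and 6.22% and 7.17% in KO. The stretch was picked on its values, so these are a description only.

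Both promoter bins were lost at 6 genes, Sfn, Tnf, Prodh, Trim31, Tjap1 and Il33. The promoter of Sfn, which encodes the cell cycle regulator 14-3-3 sigma, was 93.5% and 98.3% covered by H3K27me3 in WT and had no covered base in KO. H2AK119ub covered it fully in all 4 HSPC libraries. Tnf encodes the inflammatory cytokine TNF, and its promoter was 80.0% and 100% covered in WT and 0% and 0.0500% in KO, again under full H2AK119ub cover in all 4. In mES cells the Tnf promoter was fully covered by both marks in all 8 libraries, whereas the Sfn promoter carried H2AK119ub in full and no H3K27me3. At Prodh, a proline dehydrogenase gene, H3K27me3 went from 100% and 76.5% to 10.7% and 11.0%, with H2AK119ub between 95.6% and 100%. Il33, an alarmin cytokine gene, went from 100% and 100% to 41.4% and 34.2% with no H2AK119ub in any of the 4 libraries. Trim31 and Tjap1 had WT values of 53.3% to 100% and KO values of 0% to 25.04%. Loss of H3K27me3 at these 6 promoters was thus met with full, partial and absent H2AK119ub.

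The lists of related genes were chosen with earlier results of these data known, and the counts are set beside those over all genes. Homeobox and developmental transcription factors, the classical Polycomb targets, had a lost bin in the span of 1 of 35 genes (2.86%, against 11.6% of all genes). All 35 had a promoter marked in both WT libraries, and 0 of the 35 had a lost promoter bin, against 5.48% of all genes with a promoter so marked. Genes for Wnt, Notch, BMP and Hedgehog signalling had 5 of 33 spans with a lost bin and 0 lost promoters. Cell cycle inhibitors (12 genes), stromal and endothelial genes (12) and regulators of IAP and H3K9 silencing (11) had 0 spans with a lost bin.

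Over all protein-coding genes 11.6% of spans and 2.46% of promoters held a lost bin, and the list counts below stand beside those shares without a test. They were not adjusted for gene length or for how many genes of a list carried H3K27me3 in WT. Haematopoietic transcription factors had a lost bin in 9 of 24 spans (37.5%), namely Spi1, Lmo2, Mecom, Lyl1, Irf8, Zfpm1, Zbtb16, Nfe2 and Erg, and in 0 promoters. Of the 24 genes, 15 had a promoter bin marked in both WT libraries, against 9339 of all 20807 genes. The 9 genes held 14 lost bins, from 1 of 18 WT-marked bins in the 597-kb span of Mecom to 1 of 1 in Nfe2. In Spi1, which encodes the myeloid and B cell factor PU.1, 3 of the 4 bins marked in both WT libraries were lost and none was kept. Its span was 16.8% and 24.8% covered in WT and 14.4% and 4.89% in KO, so the genotypes did not overlap, although KO library 1 lay close to WT library 1. H2AK119ub marked these 3 Spi1 bins in all 4 HSPC libraries. Lymphoid regulators and receptors had 9 of 25 spans with a lost bin (36%) and a lost promoter bin at Cd79a, a B cell receptor subunit gene, where H3K27me3 cover was 25.04% and 34.6% in WT and 0% in both KO libraries. Ion channel and neuronal receptor genes, many of them long, had 10 of 24 (41.7%) and 0 promoters. Cytokine and growth factor receptors had 6 of 20 spans and 1 promoter, Fgfr1, where H3K27me3 cover was 70.7% and 67.02% in WT and 39.3% and 18.9% in KO. Myeloid and mast cell genes had 3 of 20 spans, erythroid and megakaryocytic genes 2 of 13 with the promoter of Itga2b (platelet integrin alpha IIb), and widely expressed genes 2 of 11.

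Polycomb subunit genes had 5 of 29 spans with a lost bin (17.2%, against 11.6% of all genes) and lost promoter bins at Pcgf3, of a noncanonical Polycomb repressive complex 1, and at Ezh2, the methyltransferase of Polycomb repressive complex 2. The Ezh2 promoter window was 31.6% and 31.4% covered in WT and 25.04% and 0% in KO. Pcgf2 and Cbx7, subunits of canonical Polycomb repressive complex 1, each had 3 lost bins, with 1 and 7 bins kept. Genes for H2A deubiquitylation, MBD proteins and RNA m5C had 3 of 25, with 1 lost bin in Tet1, 1 in Dnmt3a and 5 in Nsun2. Nsun2, which encodes an RNA m5C methyltransferase, was the only one of the 8 study genes with a lost bin. Of its 12 WT-marked bins 5 were lost and 5 kept. Its annotated span of 102 kb was 15.7% and 15.8% covered in WT and 6.44% and 6.07% in KO. The bodies of Tet2, Mbd5, Bap1 and Pspc1 had no bin marked in both WT libraries. Mbd6 had 1 marked bin, Nfkbia 1 and Socs3 4, and none of these was lost.

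H2AK119ub was measured in separate libraries and did not enter the selection. In WT libraries 1 and 2 it marked 40.03% and 32.4% of the lost bins, and in KO libraries 1 and 2 it marked 38.4% and 39.9% (36.2 ± 5.37% against 39.1 ± 1.06%, mean ± SD, n = 2 each). The genotypes overlapped, with a difference of 2.87 percentage points, KO minus WT (two-sided exact permutation test, p = 1.0). Without WT library 2, which had the shortest of these lists, the difference was -0.92 points. Thus a loss of H2AK119ub to match the loss of H3K27me3 was not detected. With 2 libraries against 2, the smallest p such a test allows is 0.333.

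Bin by bin, 1629 lost bins (20.4%) were marked by H2AK119ub in all 4 HSPC libraries and 3417 (42.7%) in none. Among kept bins 24.5% were marked in all 4 and 36.7% in none. Only 115 lost bins were marked in both WT and no KO library, and 181 in both KO and no WT library. Of the 4586 lost bins marked in at least 1 library, these were 2.51% and 3.95%, beside 2.7% lost and 4.76% gained over all autosomal bins marked by H2AK119ub. For kept bins the shares were 1.09% and 6.46%. In promoters H2AK119ub marked 61.4% to 75.8% of the 472 lost bins across the 4 libraries, in exons 54.0% to 63.8%, in introns 29.5% to 38.1% and in intergenic sequence 23.9% to 30.2%. In lost bins with at least 30 CG the range was 73.0% to 83.0%.

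The distance to kept bins separated the genotypes, in a design too small for the test to pass. H2AK119ub marked 43.0% and 33.7% of the kept bins in the WT libraries, and 46.7% and 48.6% in the KO libraries. Lost minus kept was therefore -2.97 and -1.29 points for the WT libraries, whereas it reached -8.32 and -8.69 points for the KO libraries. The gap was -2.13 ± 1.19 points in WT and -8.51 ± 0.263 in KO (mean ± SD, n = 2 each), a difference of -6.38 points (p = 0.333 in the two-sided exact permutation test, or 0.556 after adjustment over 5 tests). That p is the lowest that the design can give. The share marked was higher in KO than in WT for kept bins, whereas for lost bins the genotypes overlapped. Lost and kept bins were sorted by the KO H3K27me3 lists, and what this does to the gap was not tested. The classes of bin examined were overlapping cuts of the same bins in the same 4 libraries, so they add no replication. In each of them the KO gap was below the WT gap. The difference was -2.51 points in promoters, -4.32 in exons, -7.69 in introns and -6.52 between genes, and -5.61 and -6.27 for bins with at least and under 30 CG. By length of the WT H3K27me3 run it was -2.48 points in runs of 1 kb, -5.84 in runs of 2 to 4 kb and -8.49 in runs of at least 5 kb.

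**Figure D5:**
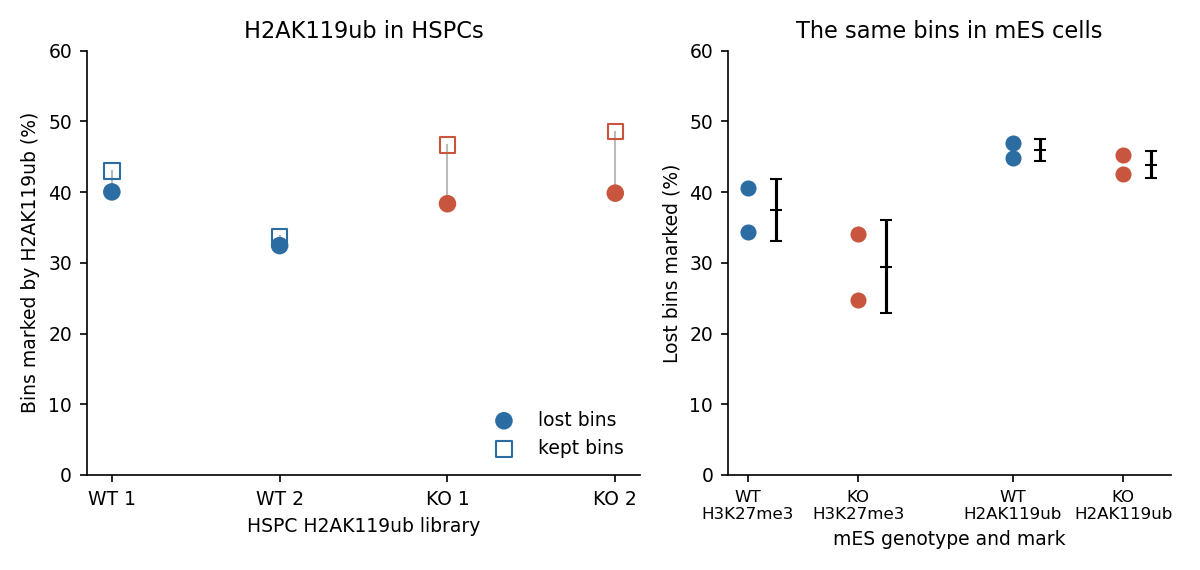
Left, share of lost bins (filled circles) and kept bins (open squares) marked by H2AK119ub (y axis, %) in each HSPC library (x axis), with grey lines joining the pair. Right, share of the lost bins marked (y axis, %) in WT and KO mES libraries for each mark (x axis), as points with the mean and SD of 2 libraries beside them. The gap on the left is -2.97 and -1.29 points for WT and -8.32 and -8.69 for KO libraries, and the H3K27me3 values on the right are 34.3% and 40.6% in WT and 34.1% and 24.8% in KO.

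In the mES libraries fewer of the lost than of the kept bins carried H3K27me3, and the same held for gained bins. WT mES libraries 1 and 2 marked 33.0% and 40.4% of the gained bins, close to the shares of lost bins given below. They marked 61.0% and 66.8% of the kept bins. Both WT mES H3K27me3 libraries marked 31.7% of lost and 58.8% of kept bins, and no mES H3K27me3 library marked 53.1% and 28.3%. H3K27me3 marked 34.3% and 40.6% of lost bins in WT mES cells and 34.1% and 24.8% in KO mES cells. The means were 37.5 ± 4.42% and 29.5 ± 6.62% (SD, n = 2 each), a difference of -7.99 points (p = 0.333 by two-sided exact permutation, adjusted to 0.556). The groups did not overlap, but the nearest WT and KO libraries were less than 1 point apart, and the mES lists themselves ranged from 148 to 230 Mb covered, with the shortest from KO. Of 3753 lost bins marked in at least 1 mES H3K27me3 library, 334 (8.90%) were lost and 65 (1.73%) gained in KO mES cells, beside 7.53% and 2.9% over all autosomal bins marked there. The values for kept bins were 6.39% and 0.769%.

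H2AK119ub in mES cells marked 47.0% and 44.8% of the lost bins in WT and 45.2% and 42.6% in KO (45.9 ± 1.54% and 43.9 ± 1.88%, mean ± SD, n = 2 each). The groups overlapped, with a difference of -2.02 points (p = 0.667 by two-sided exact permutation, adjusted to 0.833). Of 4688 lost bins marked in at least 1 of these libraries, 3.58% were lost and 1.69% gained, beside 4.06% and 2.92% over all such bins. The H2AK119ub change at the lost bins was 4.89 points higher in HSPCs than in mES cells, a difference that did not pass the test (two-sided exact permutation within cell type, 36 arrangements, p = 0.333; adjusted p = 0.556, smallest possible p = 0.0556). Neither mark in mES cells, nor H2AK119ub in HSPCs, was found in any library at 1832 lost bins (22.9%).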

How the data were processed

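Peak lists of 16 mouse CUT&Tag libraries were used as deposited (H3K27me3 and H2AK119ub, Tet2 WT and KO, HSPCs and mES cells, 2 libraries per group, grouped by the sample labels). The 4 K562 lists were not used. Before deposit, the authors used Trimmomatic 0.39 for trimming and Bowtie2 2.4.1 for alignment to mm10 (versions from the submitters' processing notes), removed duplicates with Picard and called broad peaks with MACS2. The labels also name HOMER 4.9, and which tool wrote these lists was not given in the sources used here. The deposited values are peak starts and ends, 1 list per library, without score, count or spike-in scaling. Depth is unknown, and a longer list may reflect more reads.

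Autosomes were divided into bins of 1 kb, and a bin was marked at 50% cover. A bin was assigned to a promoter (1 kb each side of a protein-coding start) by its centre, otherwise to an exon or intron it touched, or called intergenic. Gene models were GENCODE M21. Sequence was GRCm38, the same build as mm10. Peak starts were read as 0-based and coordinates are printed 1-based. Calculations used Python 3.11.15, numpy 2.4.6, pandas 2.3.3 and matplotlib 3.10.9. Cover was tested on simulated data and checked against bedtools 2.31.1. Marks outside the selection were compared by two-sided exact permutation tests over libraries with Benjamini-Hochberg adjustment over 5 tests. The replicate numbers were not treated as pairs.

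Genes named were the 25 with the most lost bins, the 10 longest runs, promoters with both bins lost, list members with a lost promoter bin and 8 study genes. Members, lists and tests were chosen with earlier results of these data known. A few genes, among them one with many lost bins and the runs in it, the longest included, are not reported here but stay in the totals. Alternatives were other cover thresholds, bin widths, peak filters and promoter windows, and leaving out each library.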

Additional observations from a re-analysis of the deposited data

How the results depend on the processing

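The number of lost bins depended on how many libraries had to agree and on how strict the cover rule was. It was 8003 with all 4 libraries and 13020 to 27010 when 1 H3K27me3 library was left out (27010 without WT library 1, 26555 without WT library 2, 16754 without KO library 1 and 13020 without KO library 2). It was 3359 when both KO libraries had to be without a covered base, and 1162 at 75% in WT and under 25% in KO, a rule chosen after seeing the data. Cover thresholds of 25% and 75%, narrower bins and bins of 2 kb, peaks of at least 1 kb, joined peaks and lists of equal length gave 5488 to 10358 bins or kb. The promoter share of lost bins rose from 5.90% to 10.9% with a window of 2 kb on each side, and that of kept bins from 10.9% to 17.6%. Genes with at least 3 lost bins rose from 320 to 399 with 5 kb added upstream.

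The H2AK119ub difference at lost bins in HSPCs ranged from -0.925 to 6.67 points when 1 library was left out and turned negative only without WT library 2. It stayed positive under the other 11 alternatives. The KO minus WT difference in the distance to kept bins was between -8.13 and -5.54 points under all 12 alternatives. With 1 library left out, the differences in mES cells stayed negative, from -12.7 to -3.31 points for H3K27me3 (lowest without KO library 1, highest without KO library 2) and from -3.35 to -0.687 for H2AK119ub, and the difference between cell types was 1.09 (without HSPC WT library 2) to 8.69 points (without HSPC WT library 1). The sources do not say that replicate numbers pair the libraries. Same-numbered libraries deviated with correlations of -0.0316 to 0.000966 across bins. A replicate block, KO minus WT within each number, gave the same mean differences of 2.87, -6.38, -7.99, -2.02 and 4.89 points, with exact sign-flip p of 1.0 for the first and 0.5, the smallest possible, for the others. No alternative could bring a test of these group sizes under 0.05. The lists carry no read counts, so bins near the threshold cannot be weighed by depth.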
